A study of Mus musculus with 6 samples.

Results

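Cholesterol and fatty acid synthesis was followed through 35 mouse genes, taken from a list of symbols of the mevalonate and sterol enzymes, the SREBP transcription factors and their control, sterol carriers, and enzymes of fatty acid synthesis. The members were found by their symbols in the annotation of the Affymetrix Mouse430A_2 array, a chip on which sets of short probes report transcript levels. Of the 35 genes, 33 were annotated to at least 1 probe set, 71 probe sets in all of the 22626 tested, and Acat2 and Insig1 were not analysed here. Each of 6 samples was hybridised to 1 array, 3 with the title spermatogonial stem cells and 3 with that of total testicular cells. All came from testes of mice carrying the CD4HAglo transgene, which its full name, Stra8-CD4HAglo, and the labels describe as human CD4 under the germ cell gene Stra8. The stem cell arrays held RNA of CD4-positive cells isolated with magnetic beads, each preparation from 50 males. The total testicular cell arrays carry a source text that names CD4-negative cells, so their title and source differ. Age, strain and whether the replicates of a group were separate preparations are not given in the sources used here, so p-values measure the spread between these arrays, which may be technical.

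Cells build cholesterol from acetyl-CoA by way of mevalonate, isoprenoid units, squalene and lanosterol, and the enzymes after lanosterol remove methyl groups and move and reduce double bonds. SREBP factors, held in the endoplasmic reticulum by INSIG proteins and carried out of it by SCAP, switch on these genes and those of fatty acid synthesis when sterols are low. In the testis, Leydig cells use cholesterol for testosterone, and meiotic and haploid germ cells are known to express the lanosterol demethylase CYP51, whose product is a sterol that acts on meiosis.

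Values are the authors' log2 probe set summaries, in which a difference of 1 is a doubling of signal. Every difference below is the stem cell arrays minus the total testicular cell arrays. The background was set at 2.15 from the bacterial control probe sets, and 79.7% to 84.1% of probe sets exceeded it on each array. The number of arrays, 3 per group, limits the precision. Markers of macrophages and Leydig cells were highest on stem cell replicate 1. The summed linear signal of 10 macrophage markers was 9368, 3276 and 2480 on stem cell replicates 1, 2 and 3, against 171 to 259 on the others, where Cd163 was at or below background throughout. By limma, 9 of the 10 rose. That of the 6 measured Leydig cell markers of 8 listed was 3233, 1592 and 789 against 270 to 627. All 6 Leydig markers had an unadjusted p under 0.05 and 0 passed after adjustment by limma. Of 8 Sertoli cell markers 1 rose, Clu, and 6 lay within 2 log2 units of background on both groups' means, where a change could be missed. Of 11 measured spermatogonial markers 0 passed by limma, 1 was higher and 1 lower at an unadjusted p under 0.05, and 8 lay within 2 log2 units of background on both groups' means. Lin28a, a spermatogonial marker, was at or below background on all 6 arrays. "Stem cell" is used below as the arrays' title. In bulk samples fewer cells of a type and less RNA per cell cannot be told apart.

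The upstream sequences of members from several parts of the pathway show what they have in common at the start site. RefSeq windows (build GRCm38.p6) from 250 bases before to 50 after a start were at hand for 28 of the 35 genes, 37 windows in all. Scd1 and Scd2, the members past the threshold below, had no window, nor had Sqle, Fdft1, Fdps, Stard4 and Acat1. The letters CCAAT, bound by NF-Y, a known partner of SREBP, were searched on both strands and occurred in 25 of the 37 windows (67.6%), against 37.4% of all 32851 windows. By gene, 24 of 28 members (85.7%) held it, against 42.3% of the 9887 genes of the array with a window. The GC box GGGCGG, a binding motif of SP1, occurred in 75.7% of member windows and 35.7% of all windows. By gene the shares were 85.7% of members and 61.0% of those array genes. The sterol response element, searched as TCACNCCAC on both strands, was present in 1 member window, that of Hmgcs1 (2.70% of member windows and 1.24% of all). The E-box CACGTG occurred in 16.2% and 7.15%, and the cAMP response element TGACGTCA in 0% and 1.79%. No searched motif contains another. A match is a stretch of letters, not a measured site. Windows of 4 members are shown, Hmgcs1 for its sterol response element and Msmo1, Nsdhl and Ebp as sterol genes that lay higher on every stem cell array. They lie at chr13:119690101-119690400 (plus strand), chr8:64733529-64733828 (minus strand), chrX:72918271-72918570 (plus strand) and chrX:8193463-8193762 (minus strand). Each is printed 5′ to 3′ in the direction of the gene, and capitals mark CCAAT or its reverse ATTGG, and in Hmgcs1 also the sterol response element TCACCCCAC, whose first base lies at −137 from the start.
Hmgcs1: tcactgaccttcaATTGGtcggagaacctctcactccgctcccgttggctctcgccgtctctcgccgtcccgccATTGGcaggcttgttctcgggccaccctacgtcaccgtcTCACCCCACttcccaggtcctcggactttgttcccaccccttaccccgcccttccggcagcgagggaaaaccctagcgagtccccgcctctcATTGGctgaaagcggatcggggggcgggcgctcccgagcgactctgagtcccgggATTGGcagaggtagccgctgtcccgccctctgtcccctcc
Msmo1: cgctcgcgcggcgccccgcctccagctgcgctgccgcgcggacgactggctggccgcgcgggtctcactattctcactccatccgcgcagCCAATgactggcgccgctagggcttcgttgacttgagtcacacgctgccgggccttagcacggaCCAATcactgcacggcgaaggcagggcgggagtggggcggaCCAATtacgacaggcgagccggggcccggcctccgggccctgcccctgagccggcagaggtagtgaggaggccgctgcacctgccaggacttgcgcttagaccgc
Nsdhl: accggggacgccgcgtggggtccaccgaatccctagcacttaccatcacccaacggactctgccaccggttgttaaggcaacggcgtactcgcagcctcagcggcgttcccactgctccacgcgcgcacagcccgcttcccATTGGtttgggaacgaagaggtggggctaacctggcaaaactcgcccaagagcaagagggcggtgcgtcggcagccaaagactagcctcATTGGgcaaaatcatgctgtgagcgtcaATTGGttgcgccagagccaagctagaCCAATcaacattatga
Ebp: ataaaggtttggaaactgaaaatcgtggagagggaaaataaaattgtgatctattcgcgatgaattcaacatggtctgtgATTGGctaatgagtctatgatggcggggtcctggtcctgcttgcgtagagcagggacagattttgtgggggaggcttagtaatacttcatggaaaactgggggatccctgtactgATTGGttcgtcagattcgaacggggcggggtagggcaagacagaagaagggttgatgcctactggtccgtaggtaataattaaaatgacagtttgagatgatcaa
Hmgcs1 and Nsdhl hold 4 CCAAT boxes each, Msmo1 3 and Ebp 2.

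Across the 33 measured members, 2 rose by limma (Benjamini-Hochberg adjusted p under 0.05) and 0 fell. Both are stearoyl-CoA desaturases, Scd1 and Scd2, which make monounsaturated fatty acids. Scd3, a related desaturase outside the member list, differed by −0.58 (adjusted p = 0.231 by limma) and was added after its values were seen. Over all 12393 genes, 1.63% rose and 0.137% fell. At an unadjusted p under 0.05, 10 of 33 members (30.3%) were higher, against 11.8% of all genes, and 2 (6.06%) were lower, against 13.1%. All 3 stem cell arrays lay above all 3 others for 8 members (24.2%, background 13.8%) and below them for 4 (12.1%, background 19.2%). The median difference was 0.23 over the members and −0.05 over all genes. Each gene is represented by its probe set with the highest mean, as in all counts of genes here. Without total testicular cell replicate 1, 2 or 3, 0 members rose by limma. Over the whole array the rising probe sets then went from 316 to 36, 64 and 49 of 22626. Leaving out stem cell replicate 3 gave 12 members, while over the whole array the rising probe sets went from 316 to 1365 of 22626. The ordinary unmoderated test gave 0 calls, among the members and over all probe sets. At an unadjusted p under 0.05 it had 5 members higher and 1 lower. The share of all genes in that test was not counted, so these numbers have no background beside them.

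**Figure D1:**
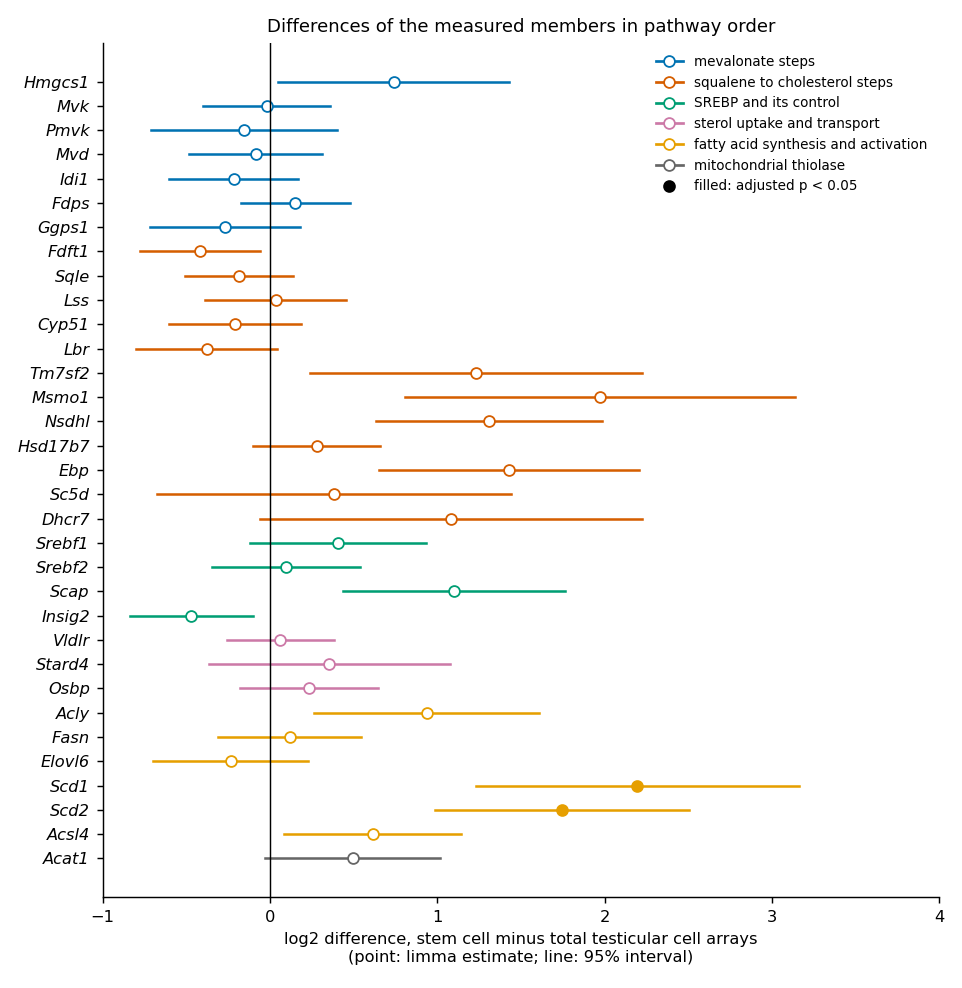
Log2 difference (x axis, stem cell minus total testicular cell arrays) of the 33 measured members (y axis), coloured by group of steps and ordered along the pathway, with limma estimates as points and 95% intervals as lines, 3 arrays per group. The filled points, Scd1 and Scd2, are the 2 members past the threshold, and the sterol enzymes from Tm7sf2 to Dhcr7 lie to the right of those from Fdft1 to Lbr.

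The mevalonate steps, which lead from acetyl-CoA to farnesyl and geranylgeranyl units, had 7 measured members. Of these 0 passed by limma. At an unadjusted p under 0.05, 1 (14.3%) was higher and 0 lower, against 11.8% and 13.1% of all genes. Hmgcs1, the cytosolic HMG-CoA synthase, whose window was shown for its sterol response element, had log2 values of 8.27, 7.70 and 6.94 on stem cell replicates 1, 2 and 3 and 6.88, 7.19 and 6.63 on the others. The groups overlapped, since stem cell replicate 3 lay below total testicular cell replicate 2. The difference was 0.74 ± 0.31 (SE over 3 arrays a group, adjusted p = 0.187 by limma), and the 4 probe sets of Hmgcs1 gave 0.44 to 0.82.

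The other 6 of these genes had differences between −0.27 and 0.15. They are the mevalonate and phosphomevalonate kinases Mvk (−0.02) and Pmvk (−0.16), the decarboxylase Mvd (−0.09), the isomerase Idi1 (−0.22), the farnesyl diphosphate synthase Fdps (0.15) and the geranylgeranyl diphosphate synthase Ggps1 (−0.27). The group's median was −0.09. Fdps had a 95% interval of −0.17 to 0.48 and Mvk one of −0.40 to 0.36, so a doubling lies outside both. Pmvk was uneven among the total testicular cell arrays (4.54, 4.35 and 5.25), and its interval ran from −0.71 to 0.40.

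The 12 sterol steps from farnesyl units to cholesterol did not differ alike. The 4 up to and including Cyp51 had a median difference of −0.20, and the 8 after it 1.16. This division follows the order of the reactions and was made after the values were seen, so it was not tested.

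Fdft1, the squalene synthase, commits farnesyl units to sterols. It had log2 values of 10.07, 10.23 and 10.08 on the total testicular cell arrays, against 9.35, 9.96 and 9.82 for the stem cell preparations. All 3 stem cell values lay below the others, most so on replicate 1. The difference was −0.42 ± 0.16 (SE, limma adjusted p = 0.161), and the second bright probe set of Fdft1 gave −0.33.

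Sqle, the squalene epoxidase, was at 7.20, 7.47 and 7.34 against 7.52, 7.57 and 7.47, also below on every array but by small amounts. Its difference of −0.18 ± 0.14 (SE, adjusted p = 0.464) had an interval of −0.51 to 0.14. Lss, which closes squalene epoxide into lanosterol, differed by 0.03 (interval −0.39 to 0.46), with both means within 2 log2 units of background. Its dimmer probe sets gave −0.12 and 0.49, the second with a total testicular cell mean below background.

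Cyp51, the lanosterol demethylase, was at 6.73, 7.04 and 6.49 on the stem cell arrays, against 6.97, 6.95 and 6.97 on the others. The groups overlapped at stem cell replicate 2, and the difference was −0.21 ± 0.18 (SE, adjusted p = 0.500). Its 2 dimmer probe sets gave 0.14 and 0.67, the second with 3.74 on stem cell replicate 1 and 1.93 to 2.34 on the other 5 arrays.

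After Cyp51, 7 of 8 enzymes had positive differences, 5 of them of at least 1, and 0 passed by limma. At an unadjusted p under 0.05, 4 (50%) were higher and 0 lower, against 11.8% and 13.1% of all genes. Over all 12393 genes, 43.0% had positive differences and 567 had one of at least 1. Msmo1, the methylsterol oxidase of C4 demethylation, had log2 values of 8.16, 7.08 and 5.85 on the stem cell arrays, against 5.21, 5.56 and 4.40 on the others. All 3 stem cell values lay above, and they spread over more than 2 units, with replicate 1 highest and replicate 3 close to the total testicular cell arrays. The difference was 1.97 ± 0.52 (SE, adjusted p = 0.0835), a 3.92-fold higher signal.

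Nsdhl, the dehydrogenase that acts next in the same demethylation, was at 6.81, 6.29 and 5.58 against 4.78, 5.23 and 4.75. The groups did not overlap, and the difference was 1.31 ± 0.30 (SE, adjusted p = 0.0645). Hsd17b7, the ketoreductase that follows, lay near background on both sides (means 2.57 and 2.29) and differed by 0.28 (adjusted p = 0.341). At that signal a change could be missed.

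Ebp, the sterol isomerase, was at 6.63, 5.69 and 5.04 on the stem cell arrays and within 4.29 to 4.43 on the others, with no overlap. Its difference was 1.43 ± 0.34 (SE, adjusted p = 0.0708). Dhcr7, the last reductase before cholesterol, was at 5.42, 4.06 and 3.12 against 3.63, 3.11 and 2.61. Its groups overlapped at replicate 3, and the difference was 1.08 (interval −0.06 to 2.22, adjusted p = 0.232).

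Sc5d, the desaturase before Dhcr7, was at 6.10 and 5.77 on stem cell replicates 1 and 2 and at 3.96 on replicate 3, below all total testicular cell arrays (4.81 to 5.06). The difference was 0.39 (interval −0.67 to 1.44). The stem cell arrays therefore gave Sc5d in both directions.

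The C14 reduction after Cyp51 can be done by either of 2 proteins, and these differed in opposite directions. Tm7sf2, a sterol reductase of the endoplasmic reticulum, was at 6.11, 5.15 and 4.05 against 3.98, 4.12 and 3.51, a difference of 1.23 ± 0.44 (SE, adjusted p = 0.146). Lbr, the lamin B receptor of the inner nuclear membrane, was at 5.53, 5.99 and 5.45 against 5.99, 6.03 and 6.08, a difference of −0.38 ± 0.19 (SE, adjusted p = 0.257). Tm7sf2 overlapped on replicate 3 and Lbr did not overlap. The contrast between the pair was not tested.

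The Leydig cell and macrophage lists had the same order of stem cell arrays as the enzymes after Cyp51. On stem cell replicates 1, 2 and 3 the median difference of those 8 enzymes from the averaged total testicular cell level was 2.07, 1.11 and 0.13. That of the Leydig cell markers was 2.82, 1.70 and 0.56, and that of the macrophage markers 5.56, 4.0 and 3.6. The summed linear signal of the 8 enzymes was 731, 443 and 228 on these arrays against 185 to 236 on the others, so replicate 3 lay within the range of the total testicular cell arrays. The part of either cell type in these differences was not tested. All 7 measured spermatid markers had negative differences (median −0.14), as did 7069 of 12393 genes. Of these markers 0 passed the threshold by limma and 0 had an unadjusted p under 0.05. Their summed linear signal was 32820, 33020 and 39740 on stem cell replicates 1, 2 and 3, against 33910 to 41090 on the others. Among the 33 members, stem cell replicate 1 was the highest stem cell array for 19 (57.6%), against 30.0% of all genes.

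**Figure D2:**
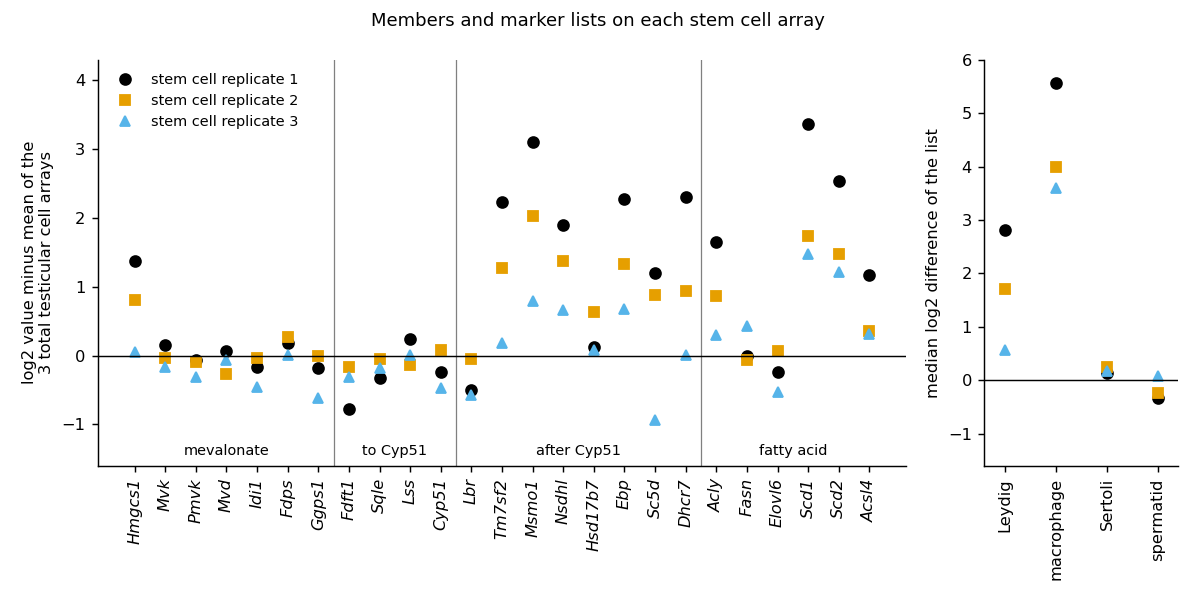
Log2 value on each stem cell array minus the averaged value of the 3 total testicular cell arrays (left y axis) for the mevalonate, sterol and fatty acid enzymes along the x axis, and the median of the same difference for 4 marker lists (right y axis). Circles, squares and triangles are stem cell replicates 1, 2 and 3. Most enzymes after Cyp51, Scd1, Scd2 and the Leydig list are highest on replicate 1, and Dhcr7 is near 0 on replicate 3.

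Leaving out stem cell replicate 3 brought 12 members past the threshold: Hmgcs1, Dhcr7, Msmo1, Nsdhl, Ebp, Sc5d, Tm7sf2, Scap, Acat1, Scd1, Scd2 and Acly. Calls increased over the whole array too, from 316 to 1365 rising probe sets of 22626. Without that replicate Msmo1 differed by 2.56 (adjusted p = 0.00815, range over all alternatives 4.81e-06 to 0.320), Nsdhl by 1.64 (0.00773, range 0.00773 to 0.313) and Ebp by 1.80 (0.00818, range 0.00306 to 0.314). The low ends for Msmo1 and Ebp came from centring on hybridization controls, a setting chosen after the data were seen. Without stem cell replicate 1, 3 members passed, Ebp (1.01, adjusted p = 0.0473), Scd1 and Scd2. Over the whole array the rising probe sets then went from 316 to 526 of 22626.

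The headers of the arrays give a hybridization date and time. Arrays that followed the one before by under 15 minutes were grouped here into the same round, which made 3 fluidics rounds. Round 1 held total testicular cell replicates 1 and 3 and stem cell replicate 1, round 3 held replicate 2 of both groups, and stem cell replicate 3 ran alone. Within round 1 Msmo1 differed by 3.36 and within round 3 by 1.52, Nsdhl by 2.05 and 1.06, and Ebp by 2.31 and 1.26. Scd1 differed by 3.43 and 1.60 and Scd2 by 2.66 and 1.24. All of these kept their sign in both rounds. With the round as a block, which takes stem cell replicate 3 out of the comparison, 10 members passed (the 12 without replicate 3, less Scap and Acat1), and 1200 probe sets rose over the whole array. Hmgcs1 differed by 1.52 and 0.51, Acly by 1.67 and 0.82 and Scap by 1.93 and 0.54 within rounds 1 and 3. Of the fluidics modules, 1 held both groups (total testicular cell replicate 3 and stem cell replicate 2). With the module as a block every difference rests on these arrays, 1 per group, so no p-value or count of members is quoted from that fit. Msmo1 differed there by 2.68, Nsdhl by 1.54, Ebp by 1.39, Scd1 by 2.02 and Scd2 by 1.92. Srebf1 (−0.06), Srebf2 (−0.02) and Fasn (−0.17) turned negative.

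Of the 4 measured genes of SREBP and its control, 0 passed by limma. At an unadjusted p under 0.05, 1 (25%) was higher and 1 (25%) lower, against 11.8% and 13.1% of all genes. Srebf1, which mainly serves fatty acid genes, was at 4.53, 4.04 and 3.94 on the stem cell arrays, against 3.49, 3.70 and 4.11 on the others. The groups overlapped, and the difference was 0.41 ± 0.23 (SE, adjusted p = 0.318). Srebf2, which mainly serves cholesterol genes, was at 4.31, 4.13 and 4.66 against 4.33, 4.34 and 4.14, a difference of 0.10 (interval −0.35 to 0.54, adjusted p = 0.805). Its sign turned under both other centrings of the arrays. These are transcript levels, and the factors are activated by cleavage of the protein, which arrays do not measure.

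Scap, the sterol-sensing escort of SREBP, was at 5.94, 4.99 and 4.84 on the stem cell arrays, against 4.06, 4.44 and 3.96 on the others. All 3 lay above, and the difference was 1.10 ± 0.29 (SE, adjusted p = 0.0868), 2.15-fold. Without stem cell replicate 3 Scap passed (1.31, adjusted p = 0.0322, range 0.0322 to 0.314 over the alternatives). Insig2, an anchor that holds the SCAP-SREBP complex back, was at 7.04, 7.54 and 7.27 against 7.82, 7.73 and 7.72. All 3 lay below, and the difference was −0.47 ± 0.16 (SE, adjusted p = 0.140). The other probe sets of Insig2 gave −0.34 and −0.13. Scap and Insig2 thus had differences of opposite sign, and neither passed.

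The sterol carriers and the lipoprotein receptor had differences of 0.06 to 0.35. Osbp, an exchanger of oxysterol and phosphoinositide lipids, differed by 0.23 (interval −0.18 to 0.64). Stard4, a cytosolic sterol carrier, differed by 0.35, with stem cell values of 3.95, 3.80 and 2.92. Vldlr, a receptor for triglyceride-rich lipoproteins, had means of 2.22 and 2.16 next to the background, so a change there could be missed. Of these 3, 0 had an unadjusted p under 0.05 by limma, against 11.8% of all genes higher and 13.1% lower. Acat1, the mitochondrial thiolase of ketone and isoleucine metabolism, was at 6.99, 6.94 and 6.20 against 6.16, 6.43 and 6.07 and differed by 0.49 (adjusted p = 0.235).

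Among the 6 fatty acid genes, 2 (33.3%) rose and 0 fell by limma, against 1.63% and 0.137% of all genes. At an unadjusted p under 0.05, 4 (66.7%) were higher and 0 lower, against 11.8% and 13.1% of all genes. Scd1, a stearoyl-CoA desaturase, had log2 values of 5.94, 4.32 and 4.06 on the stem cell arrays, against 2.71, 2.73 and 2.30 on the others. All 3 stem cell arrays lay above, and the total testicular cell values lay just above background. The difference was 2.20 ± 0.43 (SE, adjusted p = 0.0453), 4.58-fold, while the other probe set of Scd1 gave 0.22. That probe set lay next to background, with means of 2.24 on the stem cell arrays and 2.02 on the others.

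Scd2, the desaturase isoform known from brain and developing tissue, was at 7.85, 6.79 and 6.54 on the stem cell arrays, against 5.52, 5.56 and 4.87 on the others. It was far above background in both groups, without overlap, and rose by 1.75 ± 0.34 (SE, adjusted p = 0.0439), 3.35-fold. Its other probe sets gave 1.32 and 0.87. Scd1 and Scd2 are close paralogs, so part of their signal may be shared. Both calls were lost when any 1 total testicular cell array was left out (adjusted p from 0.135 to 0.223 for Scd1 and 0.126 to 0.223 for Scd2) and when the probe sets of a gene were averaged (1.21, adjusted p = 0.0516, and 1.31, adjusted p = 0.0805). Without total testicular cell replicate 1, 2 or 3, rising probe sets over the whole array also went down, from 316 to 36, 64 and 49. Over all alternatives the adjusted p ran from 2.44e-10 to 0.313 for Scd1 and from 0.000132 to 0.313 for Scd2. Both low ends came from limma after centring on hybridization controls, a setting chosen after the data were seen. Both high ends came from the unmoderated test.

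**Figure D3:**
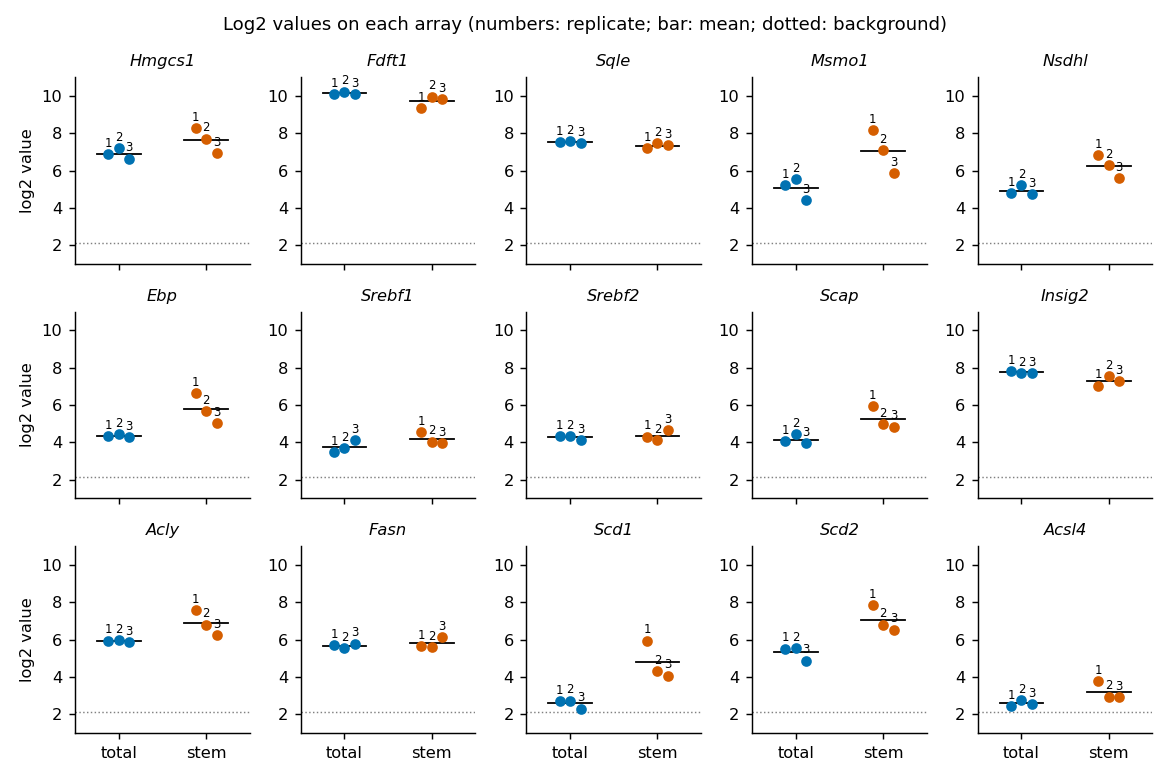
Log2 values (y axis) of 15 members on the 3 total testicular cell arrays (blue) and the 3 stem cell arrays (orange), with replicate numbers, group means as bars and the background of 2.15 as a dotted line. Scd1 and Scd2 show all stem cell arrays above all others, with replicate 1 highest, and Insig2 and Fdft1 show them below.

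Acly, the ATP citrate lyase that supplies cytosolic acetyl-CoA to both pathways, was at 7.58, 6.80 and 6.22 against 5.94, 5.98 and 5.87. All 3 stem cell arrays lay above, and the difference was 0.94 ± 0.30 (SE, adjusted p = 0.119). Its other probe sets gave 1.29, 0.75, 0.09 and −0.18, the last 2 below background. Without stem cell replicate 3 Acly passed (1.26, adjusted p = 0.0171, range 0.0171 to 0.337 over the alternatives). Fasn, the fatty acid synthase, was at 5.67, 5.61 and 6.11 against 5.70, 5.55 and 5.78, a difference of 0.12 ± 0.19 (SE, adjusted p = 0.746) with an interval of −0.31 to 0.55. A doubling lies outside this interval, whereas for Acly it lies inside (0.27 to 1.61).

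Elovl6, which lengthens palmitate to stearate, the substrate of the desaturases, differed by −0.23 (interval −0.70 to 0.23), and by 0.77 on a dimmer probe set. Acsl4, an acyl-CoA synthetase that prefers arachidonate, was at 3.75, 2.94 and 2.90 against 2.45, 2.75 and 2.55. All 3 lay above but within 2 units of background, and the difference was 0.61 ± 0.23 (SE, adjusted p = 0.163).

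Probe sets of a gene did not always give the same sign. Of the 21 members with more than 1 probe set, 9 had probe sets of both signs. For Hmgcs1, Sc5d, Srebf2, Stard4, Scd1, Scd2, Acsl4 and Acat1 all probe sets were positive, and for Fdft1, Mvk, Mvd and Insig2 all were negative. The steps with the largest sterol differences (Msmo1, Nsdhl, Ebp, Tm7sf2 and Dhcr7) and Scap rest on 1 probe set each.

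**Figure D4:**
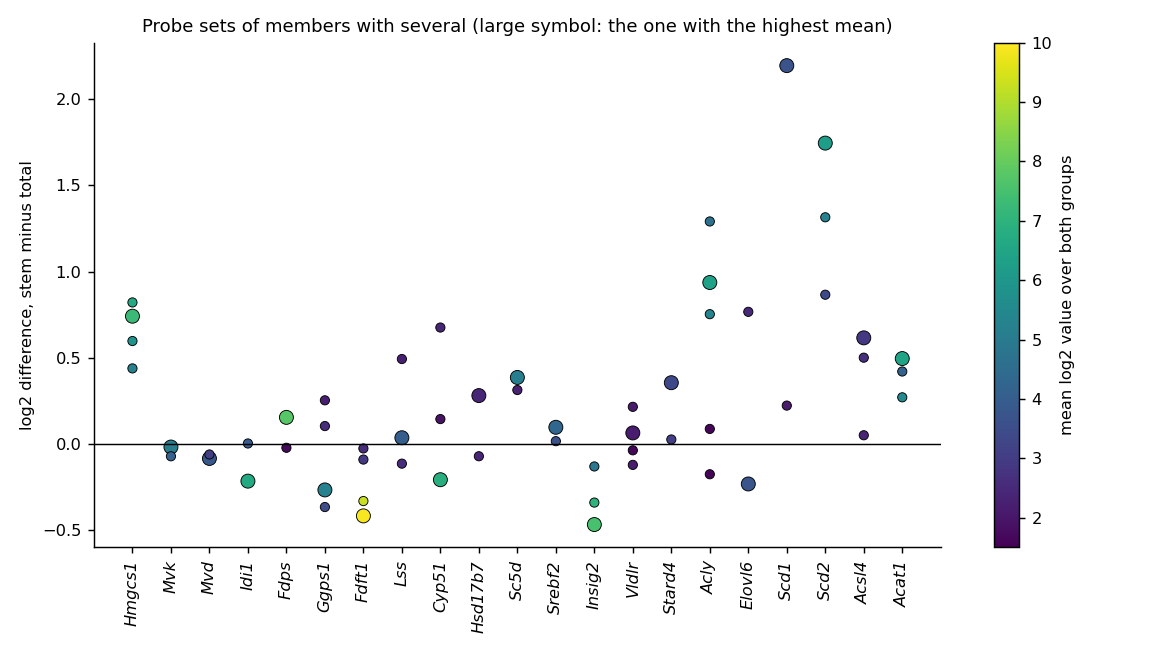
Log2 difference (y axis) of every probe set of the 21 members with several (x axis), coloured by the mean log2 value over both groups, with the probe set of the highest mean drawn large. Hmgcs1 and Scd2 have probe sets on 1 side of 0 throughout, whereas dim probe sets of Acly, Cyp51, Lss and Ggps1 depart from the brightest one.

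Other genes of lipid synthesis on the arrays gave 0 calls by limma. Of 12 measured genes of other sterol and isoprenoid steps, 5 (41.7%) were higher and 0 lower at an unadjusted p under 0.05, against 11.8% and 13.1% of all genes. Of 13 sterol sensor and SREBP-processing genes, 4 (30.8%) were higher and 1 (7.69%) lower, and of 34 other fatty acid genes, 9 (26.5%) were higher and 8 (23.5%) lower. The median differences of the 3 lists were 0.07, 0.12 and 0.03. The ordinary unmoderated test also gave 0 calls. At an unadjusted p under 0.05 it had 12 higher and 3 lower, again without a counted share of all genes. Fads1, the delta-5 desaturase of polyunsaturated fatty acids, came nearest (2.15, adjusted p = 0.0513), and was chosen after its values were seen. Without stem cell replicate 3, 13 of these 59 genes rose by limma, while over the whole array the rising probe sets went from 316 to 1365 of 22626.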

How the data were processed

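Total RNA of 6 mouse testis cell samples was extracted with Trizol and biotin-labelled after 1 round of amplification, per the labels' protocols, for 6 arrays. The deposited values are log2 probe set summaries by the authors, as their range shows (lowest 1.20, highest 13.2). Both MAS5 and RMA stand in the submitters' processing notes, without version or role, so the background correction and normalization are not given in the sources used here. The values were used as they stand. After 64 control probe sets were set aside, 22626 were tested, of which 20380 carried a single gene, 691 more than 1 and 1555 no gene in the platform annotation (0 symbols changed against RefSeq, GRCm38.p6). Background was the 95th percentile of the means of 27 bacterial control probe sets. Groups came from the titles. All came from 1 chip lot and were scanned on 1 day on 1 scanner, per the file headers, which also gave the fluidics modules. The fluidics rounds were formed here from the hybridization times in the headers (starts under 15 minutes apart).

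Groups were compared with limma 3.58.1 in R 4.3.3 (lmFit, two-sided, eBayes with a trend on the mean level; degrees of freedom were 4 residual and 5.21 prior), adjusted over all probe sets, with a threshold of 0.05. The fit was tested on simulated data. The titles state no shared origin for same-numbered arrays, so the numbers were not used as pairs. Deviations from the group means correlated at −0.01, 0.01 and 0.30 between same-numbered arrays. Between differently numbered arrays of the 2 groups the correlations ran from −0.35 to 0.30. Members and lists were chosen with earlier results of these data known. Values on each array are given for members past the threshold, for members with non-overlapping groups and an unadjusted p under 0.05 (up to 16), and for Srebf1, Srebf2, Insig2, Scap, Hmgcs1, Sqle, Fasn, Scd1, Scd2 and Acsl4. Values of other members, such as Dhcr7, Tm7sf2, Lbr, Sc5d and Cyp51, were added after they were seen. Alternatives were 17 planned settings and 2 chosen after seeing the data (the fluidics module as a block, and centring on hybridization controls).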

Additional observations from a re-analysis of the deposited data

How the results depend on the processing

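The 15 members with values on each array were refitted under 19 alternatives (285 values): 234 kept sign and side of the threshold, 24 newly passed, 17 lost the call and 10 changed sign. The sign changes concern 3 members. Srebf1, 0.41 in the reported fit, was −0.063 with the fluidics module as a block. That setting compares 1 array per group, stem cell replicate 2 and total testicular cell replicate 3. It is counted among the 19 alternatives, so its sides of the threshold enter the tally above. Srebf2 was −0.016 with the module as a block, −0.049 with the round as a block, −0.070 with hybridization control centring and −0.016 with median centring, and −0.052 to 0.216 when single arrays were left out. Fasn was −0.173, −0.018 and −0.047 under the first 3 of these, and −0.040 to 0.212 when single arrays were left out. Median centring moved all differences by −0.11 and hybridization control centring by −0.17.

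The count of members that rose, 2 in the reported fit, was 6 with array weights, 10 with the round as a block, 8 with hybridization control centring and 1 with quantile normalization (Scd2). It was 0 by limma with averaged probe sets, without an intensity trend and at a threshold of 0.01, and 0 in the unmoderated test. No count of members is quoted from the module block, which compares 1 array per group. Leaving out single arrays gave 0 to 12. No setting made a member fall. The replicate block gave 8 members (Dhcr7, Msmo1, Nsdhl, Ebp, Tm7sf2, Scap, Scd1 and Scd2), although the numbers mark no known pairing.

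Of the other genes of the pathway, 0 rose in the reported fit, against 7 with array weights, 13 with the round block, 6 with hybridization control centring, 1 with median centring, 8 with the replicate block, and 0 to 13 when single arrays were left out. The count that fell was 0, and 0 to 2 with single arrays left out.

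Over all probe sets, 316 rose and 34 fell (90.3% higher). Rising and falling counts were 853 and 148 with array weights, 1200 and 84 with the round block, and 844 and 487 with hybridization control centring (63.4% higher). They were 119 and 6 without a trend, 1065 and 196 with the replicate block, 53 and 0 at 0.01, and 0 and 0 with the unmoderated test. Median centring gave 91 falling (80.0% higher). Leaving out single arrays gave 36 to 1365 rising and 0 to 943 falling, and without stem cell replicate 2 more fell than rose (679 rising and 943 falling, 41.9% higher). Apart from the fewer arrays and residual degrees of freedom that some settings leave, the cause was not tested. The 7 members within 2 log2 units of background on both groups' means (Mvd, Lss, Hsd17b7, Stard4, Vldlr, Elovl6 and Acsl4) are limited by signal.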
